A study of Mus musculus with 6 samples.

Results

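The 10 genes described here mark the meninges and the fibroblasts of the brain's coverings, and they were followed in adult mouse prefrontal cortex. They were Slc6a20a, Slc6a13, Ogn, Dcn, Lum, Col1a1, Col1a2, Igf2, Ptgds and Aldh1a2, taken by name. All 10 were found among the 18160 genes of the deposited table, and all 10 passed the filter on low values that left 15151 genes for testing. The samples were 3 libraries from mice heterozygous for a Cyfip2 mutation and 3 libraries from wild-type mice, all of the C57BL/6J strain at postnatal day 56. The labels give neither the kind of Cyfip2 mutation nor whether a library came from 1 animal or a pool, so the p-values reflect the variation among these 6 libraries alone, which may be technical. The CYFIP2 protein belongs to the WAVE complex, through which cells start branched actin filaments. The comparison of heterozygous with wild-type samples was read here as a measure of how much meningeal tissue each cortical sample carried.

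The meninges are the membranes around the brain, and their innermost layers, the pia and arachnoid, may stay partly attached when cortex is dissected. Their fibroblasts secrete a collagen-rich matrix, exchange amino acids and other solutes with the cerebrospinal fluid, and release signals such as retinoic acid, insulin-like growth factor 2 and prostaglandin D2. Fibroblasts of the same family also line the larger vessels inside the brain. Messenger RNA of these cells can therefore be part of a bulk cortex sample. In such bulk samples, fewer cells of a type and less RNA per cell cannot be told apart.

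The values are normalized counts, that is, read estimates already scaled by the authors so that samples can be compared. Totals were 36.4 to 37.1 M normalized counts per sample, and the spacing of the lowest values gave an estimated depth of 32 to 37.7 M reads in heterozygous samples and 27.1 to 48.2 M reads in wild-type samples. The targeted gene Cyfip2 was at 28356, 28578 and 29567 in heterozygous samples, against 45454, 43174 and 45627 in wild-type samples, with a log2 fold change of -0.63 ± 0.05 (SE) and an adjusted p of 0.0027 (limma-trend with Benjamini-Hochberg adjustment over all 15151 genes). Without the trend in limma, the adjusted p was 0.146 and Cyfip2 did not pass. The neuronal genes Rbfox3 and Snap25 were at 10122 to 11301 and 112686 to 115702 in heterozygous samples, and at 11864 to 12220 and 116165 to 124195 in wild-type samples; both were abundant, as neuronal genes are in cortex. Meningeal genes outside the 10, such as the sulfate transporter gene Slc13a4 and the transcription factor gene Foxc1, were detected in every library, at 473 to 601 and 154 to 189 in heterozygous samples and at 423 to 513 and 149 to 177 in wild-type samples.

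Promoter windows, 250 bases before to 50 bases after an annotated start, were available for 7 of the 10 genes (RefSeq, GRCm38.p6). Shown here are those of Slc6a20a and Ogn, the members whose genotypes did not overlap, and of Slc6a13, the other transporter gene, at the first of its 3 starts. Capitals mark the transcribed bases after the start. The windows lie at chr9:123678783-123679082 on the minus strand, chr13:49607765-49608064 on the plus strand and chr6:121300038-121300337 on the plus strand.
Slc6a20a: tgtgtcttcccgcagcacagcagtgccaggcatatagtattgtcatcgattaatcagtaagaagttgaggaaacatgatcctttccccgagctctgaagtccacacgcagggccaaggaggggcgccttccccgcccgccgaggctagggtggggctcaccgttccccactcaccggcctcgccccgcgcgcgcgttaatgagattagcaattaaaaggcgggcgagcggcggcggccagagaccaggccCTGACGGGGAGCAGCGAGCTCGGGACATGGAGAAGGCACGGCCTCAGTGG
Ogn: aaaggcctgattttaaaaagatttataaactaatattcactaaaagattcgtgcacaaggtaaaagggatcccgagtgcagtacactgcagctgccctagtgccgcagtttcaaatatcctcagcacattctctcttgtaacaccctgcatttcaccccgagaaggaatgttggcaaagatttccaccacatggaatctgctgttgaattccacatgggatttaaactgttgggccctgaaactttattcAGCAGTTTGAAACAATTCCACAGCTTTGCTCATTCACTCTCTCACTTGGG
Slc6a13: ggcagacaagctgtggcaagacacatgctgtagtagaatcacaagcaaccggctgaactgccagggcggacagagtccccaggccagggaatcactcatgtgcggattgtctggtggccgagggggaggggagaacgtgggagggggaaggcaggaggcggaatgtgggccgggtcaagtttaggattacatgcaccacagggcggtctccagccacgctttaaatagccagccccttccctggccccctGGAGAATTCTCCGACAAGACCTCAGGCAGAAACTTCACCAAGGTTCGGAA
The windows differed in base composition, with a GC content of 62.3% for Slc6a20a, 42.3% for Ogn and 59% for Slc6a13. They were searched on both strands for 4 short motifs, with their share given over all 32851 windows. The TATA box, TATAAA, was found in 13.6% of windows, and the motif CCAAT in 37.4%. A forkhead factor site, TGTTTAC, was found in 3.65% and the E-box, CANNTG, in 72.3%. The Ogn window held 2 TATAAA matches, overlapping each other on opposite strands, and 4 CANNTG matches. The Slc6a13 window held 2 CANNTG matches and none of the other motifs, and the Slc6a20a window held none of the 4.

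Between genotypes, 9 of the 10 genes had a higher estimated level in heterozygous samples, where 50.8% of all tested genes did, but none passed an adjusted p of 0.05. Of all tested genes, 0.0132% passed. The 10 genes had a median log2 fold change of 0.11, beside 0.002 over all tested genes. At an unadjusted p under 0.05 there were 3 members, Slc6a20a, Ogn and Slc6a13, all higher in heterozygous samples. Of all tested genes, 5.07% had such a p and 2.36% had it with a higher level in heterozygous samples. In Slc6a20a and Ogn every heterozygous value lay above every wild-type value, which was so for 5.15% of tested genes. The differences were small, from 26.1% for Slc6a20a to -0.104% for Col1a1, as a percentage of the wild-type level. No member passed by limma in any of the 17 alternatives either. The count and the median turned on single samples: without wild-type sample 1 the count above wild type was 6 of 10 and the median 0.058, and without heterozygous sample 3 the count was 10 and the median 0.19.

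**Figure D1:**
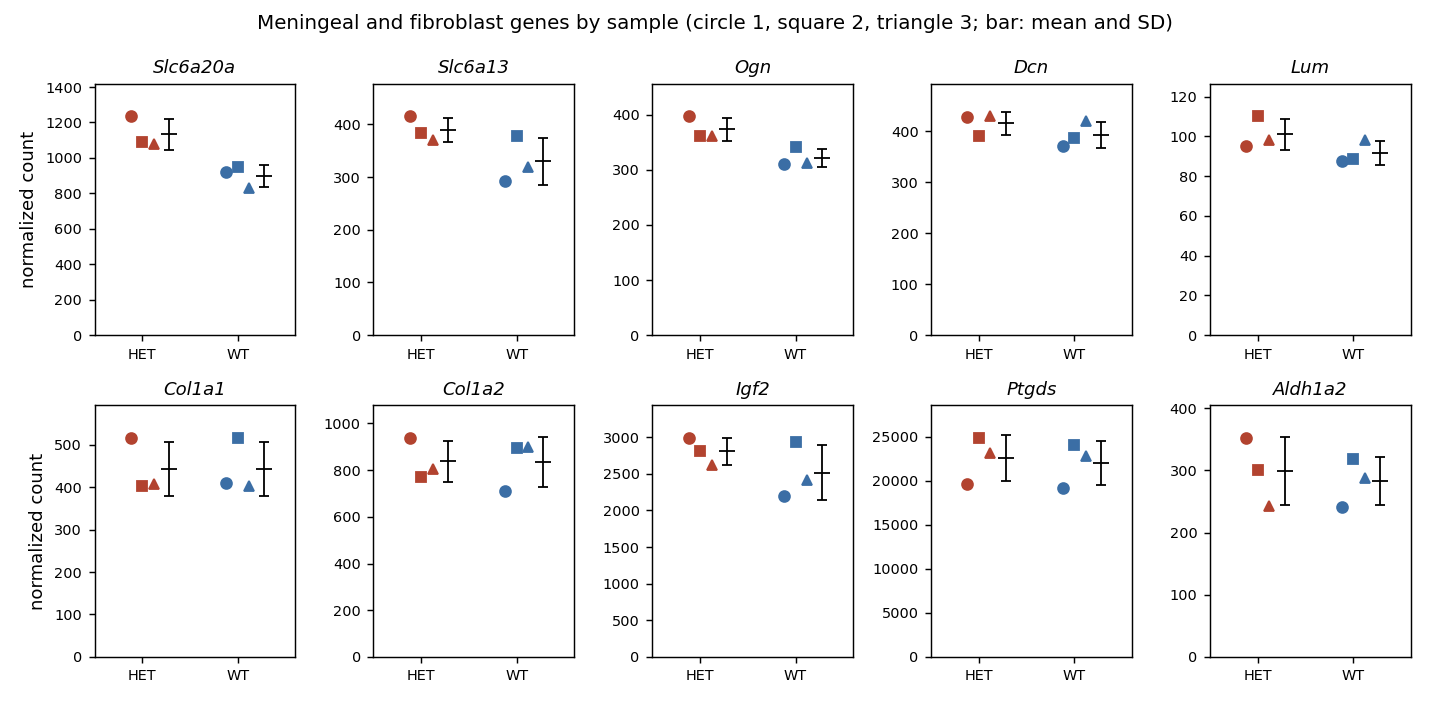
Normalized counts of the 10 genes in each sample, with heterozygous (HET) samples left of wild-type (WT) samples, symbols for sample numbers, and a bar for the mean and SD of 3 samples. The genotypes are apart for Slc6a20a and Ogn and overlap for the other 8 genes.

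The transporter genes held the largest differences. Slc6a20a encodes a sodium-coupled carrier of proline and related imino acids that is abundant in the leptomeninges (chromosome 9, 123634770 to 123678885, minus strand, GRCm38). It was at 1234, 1089 and 1077 normalized counts in heterozygous samples 1, 2 and 3, against 919, 948 and 828 in wild-type samples 1, 2 and 3. All heterozygous values were above all wild-type values, and the means were 1133 ± 87.5 and 898 ± 62.8 (SD, n = 3 each). The log2 fold change was 0.33 ± 0.08 (SE), a difference of 26.1% with a 95% interval of 11.2% to 43%, and limma-trend gave an unadjusted p of 0.0022 and an adjusted p of 0.73. An exact permutation test (two-sided) gave p = 0.1, the lowest value 3 samples per genotype can reach. Of the 31-base stretches in Slc6a20a transcripts, 19.5% also occur in its neighbour and close paralogue Slc6a20b, so some reads cannot be assigned with certainty. Ccr9, a chemokine receptor gene that overlaps Slc6a20a on the opposite strand, was at 14.4 to 18.1 in heterozygous samples and 5.19 to 15.7 in wild-type samples, and whether counting used strand is not stated. Slc6a20b was lower per length, at 8.08 and 6.65 normalized counts per kb in heterozygous and wild-type samples where Slc6a20a was at 277 and 220. Its normalized counts were 66.5 to 71.4 in heterozygous samples and 46.7 to 62.4 in wild-type samples, again without overlap.

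Slc6a13 encodes the GABA transporter GAT2, which in the brain is found mainly in the leptomeninges and around vessels (chromosome 6, 121300227 to 121337733, plus strand). Its normalized counts were 415, 384 and 370 in heterozygous samples, against 292, 378 and 319 in wild-type samples. Only wild-type sample 2 reached into the heterozygous range, just above heterozygous sample 3. The log2 fold change was 0.25 ± 0.11 (SE), with a 95% interval of 0.0006 to 0.49, an unadjusted p of 0.0495 and an adjusted p of 0.95 (limma-trend). It was 0.16 without wild-type sample 1. The neighbouring family member Slc6a12, the betaine and GABA transporter gene, was at 25.3 to 48 in heterozygous samples and 20.6 to 44.6 in wild-type samples, and the groups overlapped. Of the 18 listed SLC6 genes outside the members, 11 were tested, 8 were above wild type and none passed.

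The small leucine-rich proteoglycans Ogn, Dcn and Lum bind collagen fibrils and set their spacing and thickness. Ogn, osteoglycin or mimecan, lies on chromosome 13 (49608046 to 49624501, plus strand). It was at 397, 361 and 362 normalized counts in heterozygous samples, against 311, 341 and 313 in wild-type samples. The lowest heterozygous value stood above the highest wild-type value. The log2 fold change was 0.21 ± 0.09 (SE), a difference of 16% with an interval of 0.87% to 33.4%, at an unadjusted p of 0.04 and an adjusted p of 0.95 (limma-trend), and the exact permutation p was 0.1. Cenpp, a centromere protein gene on the opposite strand that overlaps Ogn, was at 7.16 to 13.4 in heterozygous samples and 6.79 to 14.9 in wild-type samples.

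Dcn, decorin, which also binds TGF-beta, lies on chromosome 10 (97479609 to 97518143, plus strand). Its normalized counts were 427, 390 and 429 in heterozygous samples, against 371, 387 and 420 in wild-type samples. The groups overlapped, and the log2 fold change of 0.08 ± 0.09 (SE) had an interval of -0.11 to 0.28. Leaving out wild-type sample 1 gave 0.043, and leaving out heterozygous sample 2 or wild-type sample 3 gave 0.13. Lum, lumican, is a neighbour of Dcn on the same strand (chromosome 10, 97565128 to 97572703). It was at 94.9, 110 and 98 in heterozygous samples, against 87.8, 88.6 and 98.3 in wild-type samples. Wild-type sample 3 lay inside the heterozygous range, and the log2 fold change of 0.14 ± 0.14 (SE) had an interval of -0.17 to 0.45. It was 0.076 without heterozygous sample 2. Lum had the lowest count. It rested on an estimated 85.7 to 105 reads in heterozygous samples and 72.1 to 114 in wild-type samples. That gives a counting error of 9.35% to 11.8% per sample, beside its difference of 10.2%. An error of a single sample and a difference between means of 3 samples are unlike measures.

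Other proteoglycans of this family gave 7 of 9 tested genes above wild type, a median log2 fold change of 0.10, and none past the threshold. Omd, osteomodulin, next to Ogn on chromosome 13, was at 60.6, 51.6 and 53.5 in heterozygous samples, against 44.3, 35 and 45 in wild-type samples, which did not overlap. Its log2 fold change was 0.41 ± 0.19 (SE) (limma-trend, adjusted p = 0.95). Fmod, fibromodulin, was at 886 to 1085 in heterozygous samples and 717 to 1010 in wild-type samples. The related Bgn, biglycan, and Prelp had log2 fold changes of -0.026 ± 0.11 and 0.0037 ± 0.10 (SE).

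Col1a1 and Col1a2 encode the alpha-1 and alpha-2 chains of type I collagen, the main fibrillar collagen of the dura and arachnoid. Col1a1 (chromosome 11, 94936224 to 94953042, plus strand) was at 516, 402 and 409 normalized counts in heterozygous samples, against 410, 516 and 402 in wild-type samples. One sample of each genotype, heterozygous 1 and wild-type 2, was high and the other 4 lay together. The log2 fold change was -0.0015 ± 0.13 (SE) and its interval -0.29 to 0.29. Col1a2 (chromosome 6, 4504814 to 4541544, plus strand) was at 937, 770 and 807 in heterozygous samples, against 712, 896 and 899 in wild-type samples. Its highest and lowest samples belonged to different genotypes, and the log2 fold change was 0.0073 ± 0.11 (SE) and its interval -0.24 to 0.25. The log2 ratio of Col1a1 to Col1a2 within a sample was -0.86, -0.94 and -0.98 in heterozygous samples and -0.80, -0.80 and -1.16 in wild-type samples. The genotype means of this ratio were -0.93 and -0.92.

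The transporter and collagen genes were set against each other within samples. The log2 ratio of Slc6a20a to Col1a2 was 0.40, 0.50 and 0.42 in heterozygous samples, against 0.37, 0.08 and -0.12 in wild-type samples. The lowest heterozygous ratio stood above the highest wild-type ratio, by a small margin over wild-type sample 1 (exact permutation test, two-sided, p = 0.1, the lowest reachable). This was 1 of 6 such ratios computed, chosen with the members' values known. The ratios Slc6a20a to Slc6a13, Ogn to Dcn, Lum to Dcn, Col1a1 to Col1a2 and Igf2 to Ptgds overlapped between genotypes. Taken against the mean of the other 9 members within each sample, Slc6a20a lay at 0.16, 0.07 and 0.11 in heterozygous samples and at 0.06, -0.16 and -0.25 in wild-type samples. Slc6a13 lay at 0.08, 0.06 and 0.06, against -0.11, 0.03 and -0.11. These were the members whose position relative to the other 9 did not overlap between genotypes. They are also the members with the largest fold changes, so this is not separate evidence. The share of all genes on this relative scale was not computed. On normalized counts, 10.5% of all tested genes did not overlap.

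**Figure D2:**
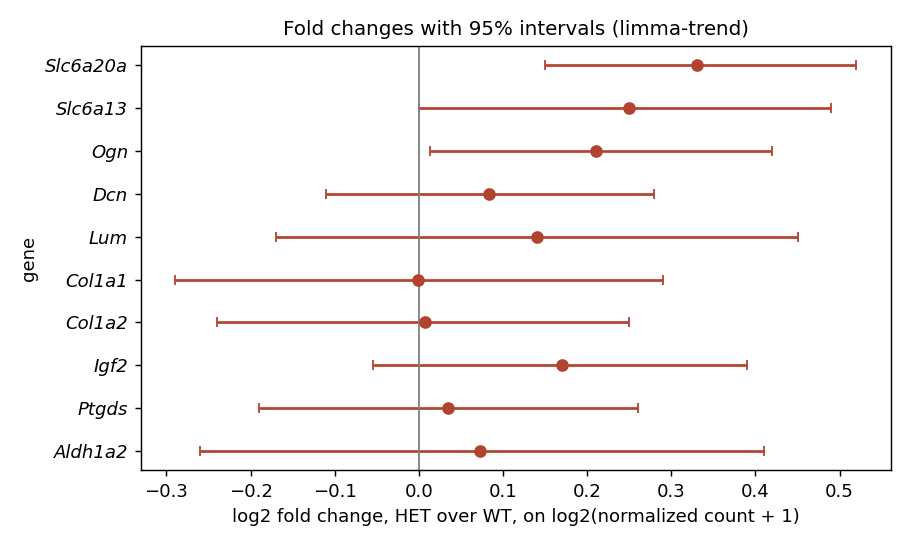
Log2 fold change of heterozygous over wild-type samples for each gene, with the 95% interval of limma-trend, on the log2(normalized count + 1) scale. The estimates run from -0.0015 for Col1a1 to 0.33 for Slc6a20a, and 7 of the 10 intervals include 0.

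Of the secreted factors and enzymes, Igf2 encodes insulin-like growth factor 2, an imprinted growth factor that the adult brain makes mostly in the leptomeninges and choroid plexus (chromosome 7, 142650766 to 142666816, minus strand). It was at 2986, 2808 and 2619 normalized counts in heterozygous samples, against 2191, 2929 and 2420 in wild-type samples. Wild-type sample 2 lay within the heterozygous range and the other wild-type samples below it. The log2 fold change was 0.17 ± 0.10 (SE) and its interval -0.055 to 0.39, and it was 0.073 without wild-type sample 1 and 0.28 without wild-type sample 2. Of its 31-base stretches, 61.9% are shared with Gm49394, an annotated gene that overlaps it on the same strand, so the value cannot be given to Igf2 alone. The deposited values hold no entry for Gm49394.

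Ptgds, the lipocalin-type prostaglandin D synthase, is made by leptomeningeal cells and also by oligodendrocytes and choroid plexus (chromosome 2, 25466709 to 25470046, minus strand). Its normalized counts were 19651, 24815 and 23153 in heterozygous samples, against 19207, 24012 and 22761 in wild-type samples. Sample 1 was the low one in both genotypes, the groups overlapped, and the log2 fold change was 0.035 ± 0.10 (SE) and its interval -0.19 to 0.26. Oligodendrocyte markers, beside it, summed to 135736 to 147102 in heterozygous samples and 139175 to 193544 in wild-type samples, which overlapped. Of these markers, 0 of 16 were above wild type and the median log2 difference was -0.11. The highest sum was that of wild-type sample 2, and wild-type samples 1 and 3 were at 148777 and 139175. Choroid plexus markers, its other source, summed to 299 to 398 in heterozygous samples and 242 to 296 in wild-type samples. In these sums Ttr alone was at 64.3, 174 and 111 in heterozygous samples, against 8.43, 66.4 and 71.6 in wild-type samples. The mean deviation of the choroid plexus list, which weights its genes equally, overlapped between genotypes, and 4 of 7 tested genes were above wild type. The part of either cell type in the Ptgds level was not tested.

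Aldh1a2 encodes the retinaldehyde dehydrogenase that makes retinoic acid in the meninges (chromosome 9, 71215789 to 71296243, plus strand). It was at 352, 301 and 243 normalized counts in heterozygous samples, against 242, 318 and 288 in wild-type samples. It varied most within the heterozygous group of all members, with a coefficient of variation of 18.3%, against 13.6% in the wild-type group. The log2 fold change was 0.07 ± 0.15 (SE) and its interval -0.26 to 0.41.

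Levels between genes were compared per length, as normalized counts per kb of merged exons. Ptgds stood first at 13669 ± 1598 in heterozygous and 13337 ± 1512 in wild-type samples, followed by Igf2 at 490 ± 32 and 439 ± 66 and Slc6a20a at 277 ± 21.4 and 220 ± 15.4 (SD, n = 3 each). Each of these was above the next gene in all 6 samples. Ogn, Aldh1a2 and Slc6a13 came next with 6-sample means of 135, 128 and 124 per kb, and neighbours in this order overlapped in range. Dcn, Col1a1 and Col1a2, at 69.2, 67.4 and 67.4 per kb, overlapped likewise, and Lum was last at 39.3 per kb, below Col1a2 in all 6 samples. Ptgds took 72.8% to 79% of the members' summed counts in heterozygous samples and 77.6% to 79.2% in wild-type samples, so the sum mostly shows Ptgds. Without it, the other 9 summed to 7359, 6615 and 6414 in heterozygous samples, against 5535, 6803 and 5986 in wild-type samples, and the groups overlapped.

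**Figure D3:**
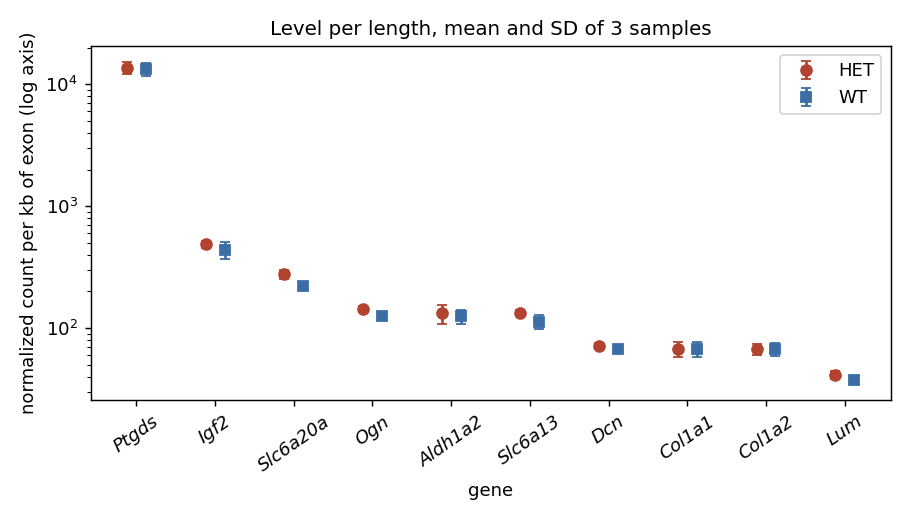
Normalized counts per kb of merged exons, on a log axis, as the mean and SD of 3 heterozygous (HET) and 3 wild-type (WT) samples per gene. Ptgds has a 6-sample mean of 13503 per kb and Lum of 39.3 per kb, and the order of genes is that of the 6-sample mean.

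The members were also followed sample by sample. Each gene's log2 value was centred on its 6-sample mean and the 10 genes were averaged. This mean was 0.15, 0.05 and -0.0013 in heterozygous samples 1, 2 and 3, against -0.19, 0.054 and -0.061 in wild-type samples 1, 2 and 3. Heterozygous sample 1 was highest and wild-type sample 1 lowest, while wild-type sample 2 lay above heterozygous samples 2 and 3. Wild-type sample 1 held the lowest of the 6 values for 8 of the 10 genes, where it was the lowest for 18.4% of all tested genes. The exceptions were Slc6a20a, lowest in wild-type sample 3, and Col1a1, lowest in heterozygous sample 2. Heterozygous sample 1 held the highest value for 6 of the 10, against 19.3% of all tested genes.

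Within wild type alone, the range of Igf2 over 3 samples was 0.42 on the log2 scale and that of Aldh1a2 was 0.39, both larger than their genotype differences of 0.17 and 0.07. The same held for Slc6a13, at a wild-type range of 0.37 and a difference of 0.25, and for Col1a1, Col1a2 and Ptgds, with wild-type ranges of 0.36, 0.34 and 0.32. Slc6a20a and Ogn had wild-type ranges of 0.20 and 0.14, below their differences of 0.33 and 0.21. The range between wild-type samples thus exceeded the genotype difference for 8 of the 10 genes, counting Dcn and Lum at ranges of 0.18 and 0.16 against differences of 0.08 and 0.14. A range over 3 single samples and a difference of means are unlike measures, and a larger range is usual for small differences. The share over all tested genes was not computed.

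**Figure D4:**
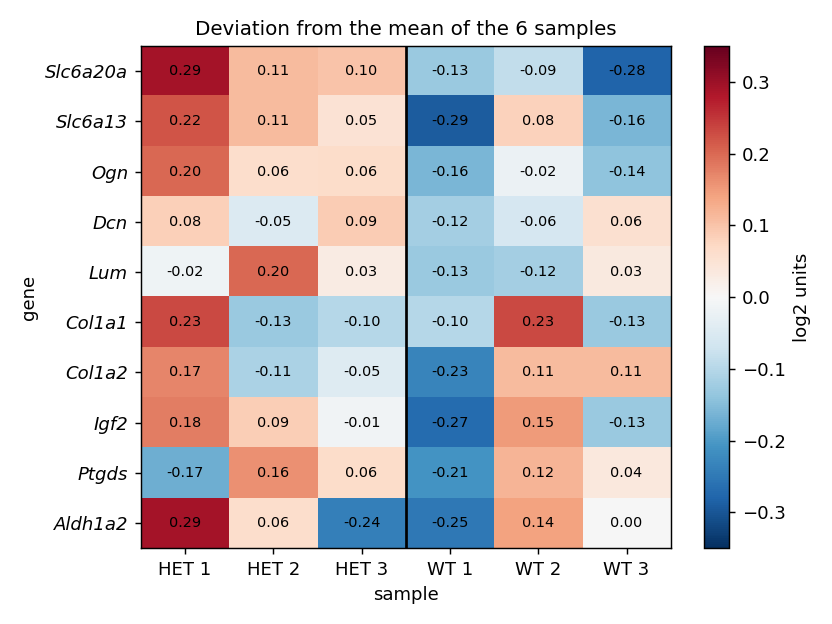
Deviation of each gene from its mean over the 6 samples, in log2 units, with heterozygous (HET) samples left of the line and wild-type (WT) samples right of it. Wild-type sample 1 is below 0 for all 10 genes and heterozygous sample 1 is above 0 for 8 of 10.

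Markers of other cells were followed in the same libraries. Wild-type sample 1 was the lowest of the 6 for 13 of 15 microglial, 10 of 15 astrocyte, 13 of 20 endothelial and 9 of 16 pericyte and smooth muscle genes. It was lowest for 4 of 16 oligodendrocyte, 3 of 9 border macrophage, 1 of 6 ependymal, 0 of 6 blood and 0 of 15 neuronal genes, and the blood list had its highest mean deviation there, at 0.23. The mean deviation of endothelial markers was 0.04, 0.09 and -0.06 in heterozygous samples 1, 2 and 3, against -0.15, 0.08 and 0.00017 in wild-type samples. That of astrocyte markers was 0.08, 0.10 and -0.08, against -0.16, 0.09 and -0.035, and that of neuronal markers was 0.0038, -0.064 and -0.017, against 0.07, -0.028 and 0.03. Wild-type sample 1 had the lowest mean of the endothelial, pericyte, astrocyte and microglial lists, wild-type sample 2 lay above heterozygous sample 3 in each, and each list overlapped between genotypes. Summed endothelial levels ranged from 26827 to 29242 in heterozygous samples and from 25257 to 29429 in wild-type samples, and 15 of 20 genes were above wild type. Summed astrocyte levels ranged from 231671 to 256052 and from 220605 to 256439, with 13 of 15 above wild type. Summed neuronal levels ranged from 507074 to 513773 in heterozygous samples and from 525498 to 543181 in wild-type samples, without overlap. The mean deviation of the neuronal list, which weights its genes equally, did overlap. Of the 15 neuronal genes, 10 were below wild type. In 4 every heterozygous value lay below every wild-type value, and in 1 every one lay above. Of all tested genes, 10.5% had no overlap in either direction. The part of these cells in the levels of the 10 genes was not tested.

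**Figure D5:**
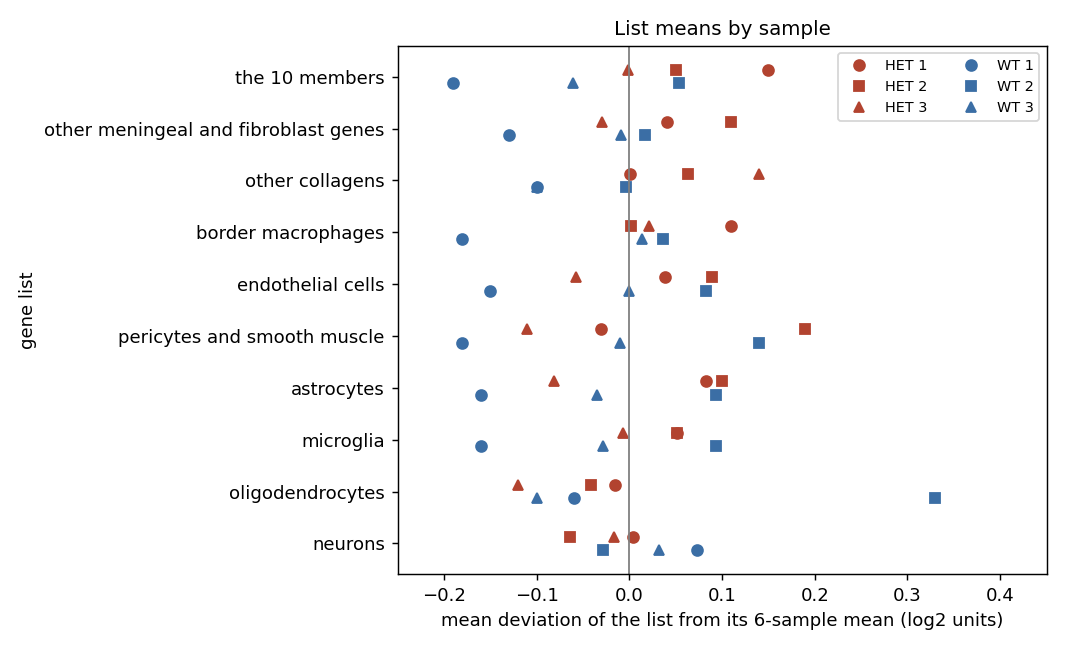
Mean deviation of each gene list from its 6-sample mean, in log2 units, for every heterozygous (HET, upper row of each list) and wild-type (WT, lower row) sample. Wild-type sample 1 is the lowest sample for the 10 members, at -0.19, and for the other meningeal and fibroblast genes, at -0.13. It is also the lowest for the border macrophage, endothelial, pericyte, astrocyte and microglial lists.

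Macrophages that live in the meninges and around vessels share the tissue of these fibroblasts. Of 9 tested border macrophage genes, 6 were above wild type and 3 below, the lowest at a log2 fold change of -0.40. The median was 0.14 and none passed the threshold. Mrc1 and Pf4 are named as those with the smallest p. Mrc1, the mannose receptor gene, was at 311, 300 and 329 normalized counts in heterozygous samples, against 245, 293 and 278 in wild-type samples, with no overlap. Its log2 fold change was 0.20 ± 0.10 (SE), and the adjusted p was 0.95 by limma-trend. Pf4, a chemokine gene, was low, at 21.4, 28.2 and 25 in heterozygous samples, against 18.7, 18.9 and 17.5 in wild-type samples, also with no overlap. Its log2 fold change was 0.41 ± 0.25 (SE), with an unadjusted p of 0.139 (limma-trend). Of all tested genes, 5.15% had every heterozygous value above every wild-type value. Cd163 was at 46.3 to 63.3 in heterozygous samples and 36.3 to 60 in wild-type samples, with overlap.

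A wider set of 48 meningeal and fibroblast genes had 35 above wild type and the median log2 difference was 0.069, and none passed an adjusted p of 0.05. Wild-type sample 1 was the lowest of the 6 for 25 of the 48, where it was the lowest for 18.4% of all tested genes. Of the 48, 1 had an unadjusted p under 0.05 with a higher level in heterozygous samples, and 3 had one with a lower level. Among all tested genes, 5.07% had such a p and 2.36% had it with a higher level in heterozygous samples. The gene of smallest p in the set was Col15a1, a basement membrane collagen of vessels and perivascular fibroblasts. It was at 294, 340 and 327 in heterozygous samples, against 453, 400 and 518 in wild-type samples. The groups did not overlap, and the log2 fold change was -0.51 ± 0.11 (SE), opposite in sign to 9 of the 10 members. Its adjusted p was 0.67 in limma-trend. Igfbp2, a binding protein of the insulin-like growth factors, was next, at 880, 876 and 921 in heterozygous samples, against 984, 1269 and 1133 in wild-type samples. Its log2 fold change was -0.33 ± 0.09 (SE) and its adjusted p was 0.74. Both genes were lower in heterozygous samples. Slc13a4, Slc22a6 and Zic1, a transporter pair and a transcription factor of the leptomeninges, were chosen here after their values were seen. They had log2 fold changes of 0.21 ± 0.11, 0.18 ± 0.12 and 0.23 ± 0.11 (SE), and each overlapped between genotypes. Foxc1, another meningeal transcription factor gene, had a log2 fold change of 0.025 ± 0.13 (SE), also with overlap.

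Of 26 further collagen genes, 16 were above wild type, the median log2 fold change was 0.088 and none passed. Col12a1, a fibril-associated collagen, was at 902, 1462 and 1241 normalized counts in heterozygous samples, against 882, 785 and 760 in wild-type samples. Heterozygous sample 1 barely exceeded wild-type sample 1, and the log2 fold change was 0.54 ± 0.15 (SE) (limma-trend, adjusted p = 0.74). Col6a2, a chain of the microfibrillar type VI collagen, was at 771, 773 and 697 in heterozygous samples, against 573, 682 and 541 in wild-type samples, a log2 fold change of 0.32 ± 0.10 (SE) with an adjusted p of 0.79. Col3a1, the fibrillar collagen usually found with type I, was at 199 to 273 in heterozygous samples and 199 to 238 in wild-type samples, a log2 fold change of 0.03 ± 0.14 (SE). Among 19 genes that process procollagen, 12 were above wild type, the median was 0.037 and none passed. Crtap, part of the prolyl 3-hydroxylation complex, was at 231, 234 and 213 in heterozygous samples, against 177, 175 and 208 in wild-type samples. The galactosyltransferase gene Colgalt1 was at 2176 to 2229 in heterozygous samples and 1990 to 2080 in wild-type samples. Neither overlapped between genotypes, and both had an adjusted p of 0.95 in limma-trend. In this list of 19, 2 genes had every heterozygous value above every wild-type value and 2 had every one below. Among all tested genes, 10.5% had no overlap in either direction.

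The partners of the secreted members gave no call either. In the insulin-like growth factor axis, 4 of 15 tested genes were above wild type and the median log2 fold change was -0.056. Besides Igfbp2, Igfbp6 had a small p, at 818, 1066 and 1063 in heterozygous samples, against 1060, 1224 and 1183 in wild-type samples, a log2 fold change of -0.24 ± 0.11 (SE) that was -0.12 without heterozygous sample 1. The receptor genes Igf1r and Igf2r had log2 fold changes of -0.017 ± 0.06 and 0.06 ± 0.06 (SE).

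Of 12 tested genes of prostaglandin synthesis and prostaglandin D2 signalling, 10 were above wild type and the median log2 difference was 0.063. Ptges2, a prostaglandin E synthase gene, was at 1530, 1310 and 1338 in heterozygous samples, against 1320, 1230 and 1204 in wild-type samples, which overlapped. Akr1c18 was at 53.9 to 73.1 in heterozygous samples and 70.8 to 88.5 in wild-type samples. The receptor gene of prostaglandin D2, Ptgdr, was at 33.9 to 42.3 in heterozygous samples and 29.4 to 40 in wild-type samples.

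In the retinoid pathway, 7 of 16 tested genes were above wild type and the median log2 fold change was -0.048. Aldh1a1, the sister enzyme of Aldh1a2, was at 1457, 1467 and 1438 in heterozygous samples, against 1550, 2066 and 1846 in wild-type samples. The groups did not overlap, and the log2 fold change was -0.31 ± 0.09 (SE) (limma-trend, adjusted p = 0.79), opposite in sign to that of Aldh1a2. Rbp4, the carrier of retinol, was at 434, 377 and 374 in heterozygous samples, against 361, 340 and 331 in wild-type samples, also without overlap, with a log2 difference of 0.20 ± 0.09 (SE). The retinoic acid degrading enzyme gene Cyp26b1 was at 123 to 142 in heterozygous samples and 108 to 219 in wild-type samples.

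The genes most like the members' mean profile over the 6 samples were sought among 13301 other genes with a mean of at least 50, by the root mean square difference of centred log2 values. The closest were Eif2b5, a translation initiation factor subunit, at a difference of 0.024, Itih5, an inter-alpha-trypsin inhibitor heavy chain that was also in the wider meningeal set, at 0.027, and Ppp4r1 and Gpam at 0.028 each. Cyp2j6, Hdac10, Eya1 and Mafk followed at 0.029 each. Itih5 was at 1881, 1785 and 1761 in heterozygous samples, against 1569, 1860 and 1676 in wild-type samples, with overlap. Log2 fold changes of these 8 genes were 0.091 to 0.14 and none passed the threshold. Of the members, Ogn at 0.058 and Igf2 at 0.061 lay nearest to the mean profile, and Slc6a20a at 0.133 and Ptgds at 0.149 farthest from it. As many as 197 genes outside the list lay closer to the mean profile than Ogn did, and 7407 lay closer than Ptgds. Each member is itself part of that mean, and an average varies less than single genes do. Genes that vary little therefore lie close to it, so these ranks do not show shared behaviour or its absence.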

How the data were processed

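Libraries from the prefrontal cortex were made with a stranded mRNA kit, per the labels' protocols. The submitters' processing notes name Salmon 0.11.2, R 3.6.0, DESeq2 1.19.11 and GRCm38 without their roles. The authors deposited 1 normalized signal per gene and sample (normalized counts, not raw counts): median-ratio factors recomputed on them were 1 in every sample. The authors' filter and annotation release were not stated in the labels. Of 18160 identifiers, 18122 matched a GENCODE symbol. Positions, overlaps and 31-mers are from GENCODE M21 on GRCm38.

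Genotypes were compared on log2(value + 1), genotype being the only term, by limma-trend (limma 3.58.1 under R 4.3.3) for genes with a mean of at least 10, with Benjamini-Hochberg adjustment over 15151 genes and a threshold of 0.05. This scale understates fold changes of low genes. Intervals are 95% intervals of that fit. The procedure was tested on simulated data. Whole reads were not recovered, so no count model was used, and depth is an estimate from the most common low value; counting errors cover counting error only. Samples of the same genotype all differed by more than counting noise (mean chi-square per gene 9.35 to 26).

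The members and the 19 other gene lists were chosen with earlier results of these data known. All members are named. The rule for other genes took the 2 with the smallest p in each list, the first markers of cell types and the 8 genes nearest the members' mean. Those of the endothelial, pericyte, microglial and astrocyte lists are given as list values only, some others are left out for length, and 1 gene is not reported here. Further relatives of members (among them Slc6a12, Bgn, Prelp, Col3a1, Igf1r, Igf2r, Ptgdr, Cyp26b1, Slc13a4, Slc22a6, Zic1 and Foxc1) were named after their values were seen. The alternatives were rescaling, limma settings, filters, pseudocounts, a threshold of 0.1, a replicate block, array weights and leaving out each sample.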

Additional observations from a re-analysis of the deposited data

How the results depend on the processing

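Over 17 alternatives, 160 of 170 values of the 10 members kept their direction and stayed short of the threshold, and 10 changed sign, all of Col1a1, Col1a2, Ptgds or Aldh1a2. With array weights the log2 fold change of Col1a2 was -0.039. Leaving out 1 sample at a time gave -0.12 to 0.11 for Col1a1, -0.10 to 0.066 for Col1a2, -0.059 to 0.13 for Ptgds and -0.054 to 0.21 for Aldh1a2. For Slc6a20a it gave 0.27 to 0.37, for Ogn 0.17 to 0.26 and for Slc6a13 0.16 to 0.35. These 3 genes' adjusted p values over all alternatives were 0.249 to 1, 0.553 to 1 and 0.556 to 1. Igf2 ranged over 0.073 to 0.28, Dcn over 0.043 to 0.13 and Lum over 0.076 to 0.19. The members' median was 0.058 to 0.19 and the count above wild type 6 to 10. Genes past the threshold numbered 2, against 1 by limma without the trend, 1 with a mean of at least 50, and 1 to 4 without 1 sample. Cyfip2 kept its log2 fold change of -0.63 without the trend, where its adjusted p was 0.146 (0.00085 to 0.146 over the alternatives).

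Deviations of same-numbered samples had correlations of 0.13, 0.12 and -0.01 over tested genes. Heterozygous samples 1 and 2 correlated best with the wild-type sample of their own number and heterozygous sample 3 with wild-type sample 1, so the numbers were not taken as pairs. With the sample number as a replicate block, 2 genes passed, the members' median was 0.11, 9 members were above wild type and none passed. Of the 10 members, Lum had the fewest counts, and several of the other genes named had fewer.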

Other observations

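Genes of the choroid plexus and of ependyma, which lie in the ventricles, were also measured. Ttr, the transthyretin gene that defines choroid plexus epithelium, was at 64.3, 174 and 111 normalized counts in heterozygous samples, against 8.43, 66.4 and 71.6 in wild-type samples. Wild-type sample 1 was the low one again, and the log2 fold change was 1.6 ± 0.69 (SE) (limma-trend, adjusted p = 0.95). It was 0.63 without wild-type sample 1 and up to 2.11 when another sample was left out. Folr1, the folate receptor gene of that epithelium, was at 7.32, 9.66 and 7.62 in heterozygous samples, against 15.4, 20.8 and 12.8 in wild-type samples, so these markers lay on opposite sides of wild type. Kl, the klotho gene, was at 56 to 67.5 in heterozygous samples and 34.5 to 63.6 in wild-type samples. The ependymal genes Tekt1 and Foxj1 had log2 fold changes of 0.45 ± 0.27 and -0.19 ± 0.15 (SE). Leaving out heterozygous sample 1 gave 0.26 for Tekt1, and for Foxj1 the values were -0.077 without heterozygous sample 3 and -0.11 without wild-type sample 2. Ccdc153 was listed at 0 in heterozygous sample 2 and in wild-type sample 1.

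Blood genes were measured in the same libraries. Hbb-bs, a beta-globin gene, was at 1934, 1805 and 1932 in heterozygous samples, against 2535, 1966 and 1868 in wild-type samples, and was highest in wild-type sample 1, where 8 of the 10 meningeal genes were lowest. The listed blood genes gave 3 of 6 tested genes above wild type, with a median log2 difference of -0.018. Hba-a1 was at 1609 to 1644 in heterozygous samples and 1453 to 1690 in wild-type samples.

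Of the oligodendrocyte list, 0 of 16 genes were above wild type, and of the striatal list 3 of 10 were. Of all tested genes, 50.8% were. The oligodendrocyte list's mean deviation was -0.015, -0.041 and -0.12 in heterozygous samples 1, 2 and 3. In wild-type samples 1, 2 and 3 it was -0.06, 0.33 and -0.10. The groups overlapped, and heterozygous samples 1 and 2 lay above wild-type samples 1 and 3. Olig2 had the smallest p of the oligodendrocyte list. It was at 514, 533 and 525 in heterozygous samples, against 553, 653 and 615 in wild-type samples, without overlap. Its log2 difference was -0.21 ± 0.08 (SE), with an adjusted p of 0.95 (limma-trend). Wild-type sample 2 held the highest mean deviation of the oligodendrocyte list, 0.33, and of the striatal list, 0.27, and was also the highest wild-type sample for 7 of the 10 meningeal genes. Ppp1r1b, a phosphatase regulator gene, had the smallest p of the striatal list. It was at 2247, 2587 and 2443 in heterozygous samples, against 2982, 3305 and 2927 in wild-type samples. Its log2 difference was -0.34 ± 0.07 (SE), with an adjusted p of 0.67 (limma-trend). Drd1 and Drd2, the first markers of that list, overlapped between genotypes. Their log2 differences were 0.015 ± 0.12 and -0.36 ± 0.36 (SE).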
